A study of Arabidopsis thaliana with 12 samples.

Results

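LCR genes (low-molecular-weight cysteine-rich) encode small secreted peptides of Arabidopsis. Of the 27444 nuclear protein-coding genes of the gene table, 80 carry a symbol made of LCR and a number, and they are the family described here. Members were chosen by symbol, and their peaks were chosen by position, as all peaks of 6 lists with a summit inside an LCR gene or within 1000 bp of it. The peak lists themselves are thus what the selection used, so every value below is a description, with no test. Of the 80 genes, 10 (12.5%) had such a summit in at least 1 list and 70 had none. All 10 were in lists of tagged plants, where 33.3% of all genes had a summit in at least 1 list.

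The peaks come from ChIP-seq, in which chromatin bound by a protein is pulled down and sequenced. An anti-GFP antibody was used on inflorescences of 3 genotypes with 2 independent biological replicates each, and with 1 input library for each ChIP library. The first genotype, called gai-YPet cuc2-1, carried pGAI:gai∆17-3xYPet in the cuc2-1 mutant, the second, called gai-YPet, carried pGAI:gai∆17-3xYPet alone, and the last was non-transgenic Landsberg erecta (Ler). All plants were of the Ler ecotype by the labels and were grown to maturity at 22 °C in long days (16 h light, 8 h dark). Each replicate was 1.8 g of inflorescences from main stems, from which open flowers and some older buds had been taken off, so younger buds made up the tissue, which held many cell types. The source names give a single line code for the transgene, which is driven by the GAI promoter, so the tagged protein is present where that promoter is active.

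DELLA proteins such as GAI repress gibberellin responses in the nucleus. They have no DNA-binding domain of their own and reach chromatin through transcription factors. Gibberellin marks DELLA proteins for degradation, and gai forms that lack the DELLA motif resist it. The NAC transcription factor CUC2 sets the boundaries between organs in flowers and pistils. LCR peptides belong to the defensin-like proteins, in which cysteines pair into disulfide bridges. The family was described for its similarity to the pollen coat proteins of Brassica, and the related SCR peptides are the male ligands of self-incompatibility there. Some members are also named plant defensins, the antifungal branch of this protein group. For most single LCR genes no role is stated here.

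The lists held 8193 and 3666 peaks in gai-YPet cuc2-1, 7042 and 11289 in gai-YPet, and 234 and 406 in Ler. Peaks were called for each replicate separately. Depth is unknown, since peak lists hold no read totals, and a gene without a peak may lie below the detection limit of that list. Fold enrichments are the authors' own value for each peak. The percentile given here is the rank of a peak by q-value among the peaks of its own list, with the strongest at the top. Because the lists differ in length and were called apart, folds and percentiles from different lists stand side by side and do not measure a change. In bulk tissue, binding in few cells and weak binding in many cells cannot be told apart.

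In each of the 4 tagged lists the share of LCR genes with a summit was below the share of all genes, a difference that was not tested. In gai-YPet cuc2-1, 7 LCR genes (8.75%) had a summit in replicate 1, where 20.8% of all genes did, and 5 (6.25%) in replicate 2, where 10.5% of all genes did. In gai-YPet, 8 LCR genes (10.0%) had one in replicate 1, beside 18.8% of all genes, and 10 (12.5%) in replicate 2, beside 31.9%. No LCR gene had a summit in the Ler lists, where 0.051% and 0.215% of all genes had one in replicates 1 and 2. The nearest Ler summit to any LCR gene was 33944 bp away in replicate 1, from LCR33, and 26458 bp away in replicate 2, from LCR30. The Ler lists were so short that a count of 0 was also near their background.

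**Figure D1:**
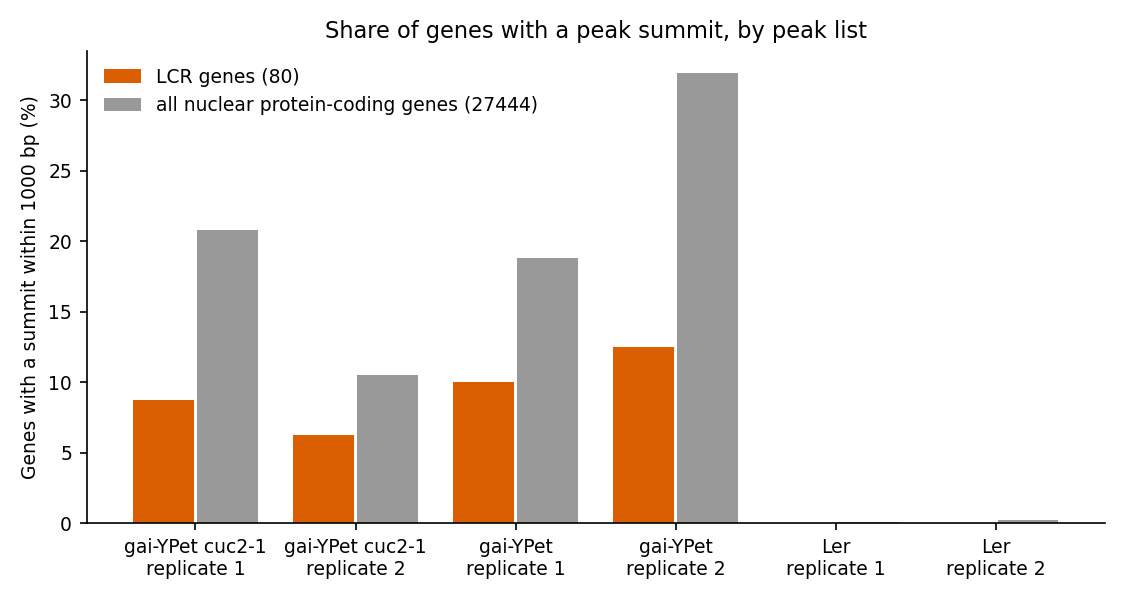
Percentage of genes with a peak summit inside the gene or within 1000 bp, for the 80 LCR genes (orange) and all 27444 nuclear protein-coding genes (grey), in each of the 6 peak lists. In the 4 lists of tagged plants the orange bars stand between 6.25% and 12.5% and the grey bars between 10.5% and 31.9%.

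In both gai-YPet cuc2-1 replicates a summit lay at 5 LCR genes (6.25%), beside 10.2% of all genes. These were LCR32, LCR5, LCR63, LCR69 and LCR43. In both gai-YPet replicates the count was 8 (10.0%), beside 18.1% of all genes, with LCR31, LCR53 and LCR10 in addition to those 5. The same 5 genes had a summit in all 4 tagged lists (6.25%), beside 9.75% of all genes. A further pair, LCR1 and LCR42, had a summit in gai-YPet replicate 2 alone, the longest list, which brings the genes with a summit in any tagged list to 10 (12.5%), beside 33.3% of all genes.

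LCR32 had the strongest peaks of the family, in the top few percent of every tagged list. Its peaks lay on chromosome 2, between 12151688 and 12152751 (build TAIR10), 768 to 835 bp from the gene, and no other protein-coding gene lay within 1000 bp of the summits. The folds were 6.75 and 5.30 in gai-YPet cuc2-1 replicates 1 and 2, and 8.55 and 5.05 in gai-YPet replicates 1 and 2. The percentiles were 98.5 and 97.4 in gai-YPet cuc2-1, and 97.5 and 96.9 in gai-YPet. LCR32 is thus the family's highest-ranked gene in each of the 4 lists, and its fold ranges in the genotypes overlap.

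LCR5, also on chromosome 2, came next by mean percentile, again with no other protein-coding gene within 1000 bp. Its summits lay 214 to 233 bp from the gene, in a region from 12120532 to 12120945 on chromosome 2. The folds were 5.47 and 2.97 in gai-YPet cuc2-1, at percentiles 91.1 and 59.9. In gai-YPet they were 5.91 and 4.94, at percentiles 86.2 and 88.3. The value that stands apart is that of gai-YPet cuc2-1 replicate 2, and the genotypes overlap.

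LCR63 differed in position, because its summits fell inside the gene in all 4 tagged lists, on chromosome 4 between 14696187 and 14696610. The folds were 5.38 and 2.68 in gai-YPet cuc2-1, at percentiles 89.6 and 45.2. In gai-YPet the folds were 5.24 and 4.97, at percentiles 80.7 and 88.5. As at LCR5, the low value was that of gai-YPet cuc2-1 replicate 2, and the fold ranges overlap.

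LCR69 is also named PDF2.2, a plant defensin, and among the 5 LCR genes with a defensin synonym it was the 1 that had a summit. The other 4 are LCR66, LCR67, LCR68 and LCR72. In any tagged list 12.5% of LCR genes and 33.3% of all genes had a summit, so 1 among 5 does not set LCR69 apart. At LCR69 the main summits lay 71 to 123 bp outside the gene, on chromosome 2 between 527535 and 528538. The folds were 3.29 and 2.49 in gai-YPet cuc2-1, at percentiles 67.9 and 32.4, and 4.46 and 4.24 in gai-YPet, at percentiles 71.3 and 83.7. In gai-YPet replicate 2 a second peak, from 528625 to 529288, had its summit inside the gene, with a fold of 2.12. In 2 of the lists ETL1, a chromatin remodelling gene, was also within reach of the main summit, at 988 bp in gai-YPet cuc2-1 replicate 2 and 990 bp in gai-YPet replicate 1.

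LCR69 is the 1 gene among the 5 with a summit in all 4 tagged lists whose folds in both gai-YPet cuc2-1 lists were below those in both gai-YPet lists. Of all 2676 genes with a summit in all 4 lists, 49.1% had this order, so the count of 1 among 5 says nothing of the family. None of the 5 had the opposite order, which 0.262% of all genes had. The lowest of the 4 folds was that of gai-YPet cuc2-1 replicate 2 in 4 of the 5 LCR genes and in 91.6% of all 2676 genes.

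LCR43 had weaker peaks, with all summits inside the gene, on chromosome 3 between 2212307 and 2212871. The folds were 2.70 and 1.74 in gai-YPet cuc2-1, at percentiles 48.7 and 1.24, and 2.05 and 2.67 in gai-YPet, at percentiles 9.03 and 60.0. The summits also fell inside AT3G07010, which overlaps LCR43 in the gene table, so the peaks cannot be assigned to either gene by position. Replicates of the same genotype differed more in rank here than at LCR32, and the genotypes overlap.

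LCR31 and LCR53 had a summit in 3 of the 4 tagged lists and none in gai-YPet cuc2-1 replicate 2, the shortest. At LCR31 the fold was 3.21 in gai-YPet cuc2-1 replicate 1, at percentile 66.3, and 3.32 and 4.77 in gai-YPet, at percentiles 60.5 and 87.0. Its summits lay 779 to 813 bp from the gene, on chromosome 1 between 9935022 and 9936563, nearly midway to DYL1, a gene named for its link to dormancy. DYL1 was the nearer gene in gai-YPet cuc2-1 replicate 1 (759 bp) and gai-YPet replicate 1 (748 bp), and LCR31 was nearer in gai-YPet replicate 2 (779 bp against 782 bp).

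At LCR53 the fold was 3.65 in gai-YPet cuc2-1 replicate 1, at percentile 76.3, and 2.95 and 4.37 in gai-YPet, at percentiles 40.6 and 83.3. The summits lay 699 to 719 bp from LCR53, on chromosome 3 between 22645342 and 22645855, but inside the neighbouring gene AT3G61180. In gai-YPet cuc2-1 replicate 2 the nearest summit was 12343 bp from LCR31 and 10155 bp from LCR53.

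LCR10 was the 1 gene with a summit in both gai-YPet lists and in no gai-YPet cuc2-1 list. Its fold was 3.20 in gai-YPet replicate 1, at percentile 44.5, and 2.87 in replicate 2, at percentile 56.2. Both summits fell on the same base, 240 bp from the gene, in a region from 6778961 to 6779229 on chromosome 2 with no other protein-coding gene within 1000 bp. The nearest summits in gai-YPet cuc2-1 were 19338 and 230887 bp away in replicates 1 and 2.

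Of the 8 LCR genes found in both gai-YPet lists, 5 (62.5%) were found in both gai-YPet cuc2-1 lists, beside 53.8% of the 4976 such genes overall. LCR10 alone (12.5%) was found in neither, beside 8.16% overall. Each count was within 1 gene of what the share of all genes would give. Over all genes, absence from the gai-YPet cuc2-1 lists went with a low rank in gai-YPet. Among the 655 genes within 5 percentile points of the gai-YPet mean of LCR10, 8.70% had no summit in gai-YPet cuc2-1 and 19.2% had one in both lists. Among the 466 genes ranked like LCR43, 26.6% had none and 9.23% had a summit in both gai-YPet cuc2-1 lists, and LCR43 was in both. Among the 685 ranked like LCR31, 76.6% had both, and LCR31 was in 1. For the 672 ranked like LCR53 the share was 46.0%, and for those ranked like LCR69, LCR63, LCR5 and LCR32 it lay between 84.4% and 99.5%.

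LCR1 and LCR42 had 1 weak peak each, both in gai-YPet replicate 2. At LCR1 the fold was 2.07, at percentile 26.2, with the summit 696 bp from LCR1 and inside HINT3, a histidine triad nucleotide-binding protein gene, on chromosome 5 between 19675859 and 19676282. At LCR42 it was 2.10, at percentile 22.8, with the summit 476 bp away on chromosome 3, in a peak from 8264031 to 8264350 whose nearest gene was LCR42.

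**Figure D2:**
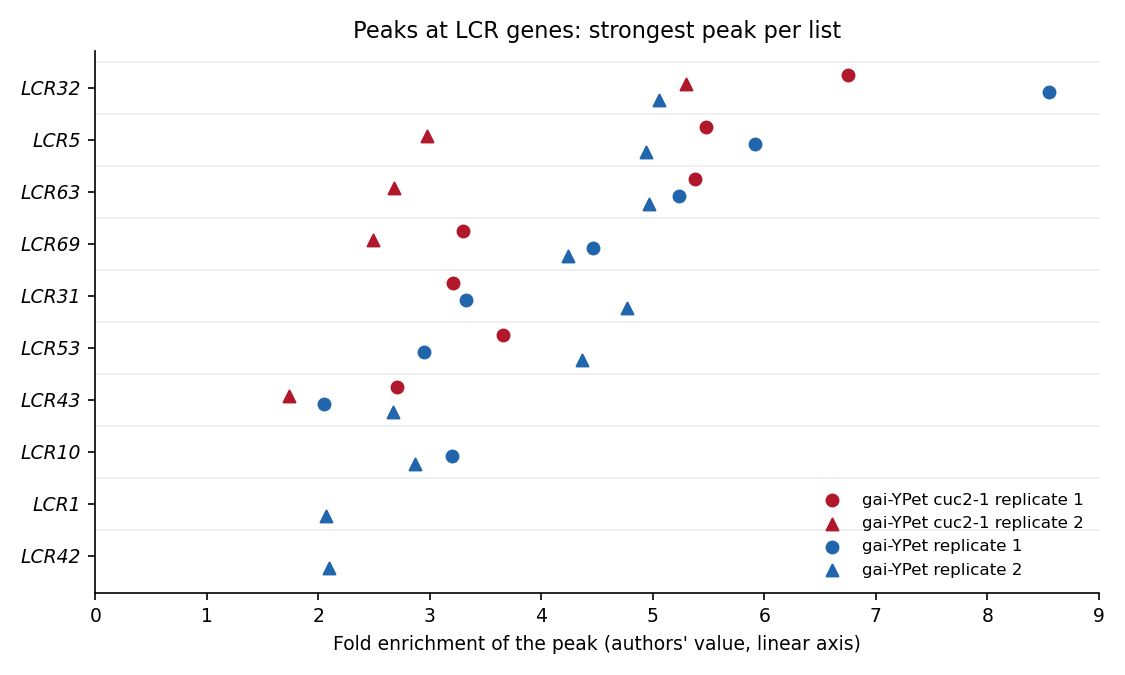
Fold enrichment, the authors' value on a linear axis, of the strongest peak at each of the 10 LCR genes with a summit. Red marks are gai-YPet cuc2-1, blue marks gai-YPet, circles replicate 1 and triangles replicate 2, and a missing mark is a list without a summit at that gene. LCR32 reaches 8.55 and LCR1 and LCR42 have 1 mark each, at 2.07 and 2.10.

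Peaks at LCR genes ran from the weakest to the strongest of their lists, from percentile 1.24 at LCR43 to 98.5 at LCR32. The median fold at LCR genes with a summit was 3.65 and 2.68 in gai-YPet cuc2-1 replicates 1 and 2, beside 2.99 and 2.72 at all genes with a summit. It was 3.89 and 4.30 in gai-YPet replicates 1 and 2, beside 3.48 and 2.69. In percentiles, LCR genes stood at 76.3 and 45.2 in gai-YPet cuc2-1, beside 59.5 and 54.3 at all genes with a summit. In gai-YPet they stood at 65.9 and 83.5, beside 57.2 and 55.4. The family's median was thus above that of all such genes in 3 lists and below it in gai-YPet cuc2-1 replicate 2, with 5 to 10 LCR genes behind each value. These values include peaks with another gene as near or nearer. The median in gai-YPet cuc2-1 replicate 1 was itself the LCR53 peak, whose summit lay inside AT3G61180.

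Summits of the same gene fell close together across lists. With the strongest peak per list, which leaves out the second LCR69 peak, the highest and lowest summit positions were 19 bp apart at LCR5, 20 bp at LCR53, 28 bp at LCR63, 34 bp at LCR31, 52 bp at LCR69, 67 bp at LCR32 and 84 bp at LCR43. The 1215 genes with exactly 1 summit in each tagged list had a median of 49 bp. LCR31 and LCR53 had summits in only 3 tagged lists, and a range over fewer summits tends to be narrower. With its second peak, LCR69 is not such a gene either. Of the 31 peaks at LCR genes, 9 had their summit inside the gene, at LCR63, LCR43 and LCR69. The LCR gene was the single nearest protein-coding gene for 21 of the 31. The exceptions were all peaks of LCR43, LCR53 and LCR1 and 2 of the 3 of LCR31, where another gene was as near or nearer. None of the 31 peaks touched a Ler peak, and the Ler lists held only 234 and 406 peaks. The matching shares over all peaks of the tagged lists were not computed, so these counts do not set the family apart. The gene table gives no strand, so summits before a gene's start were not told from summits past its end.

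**Figure D3:**
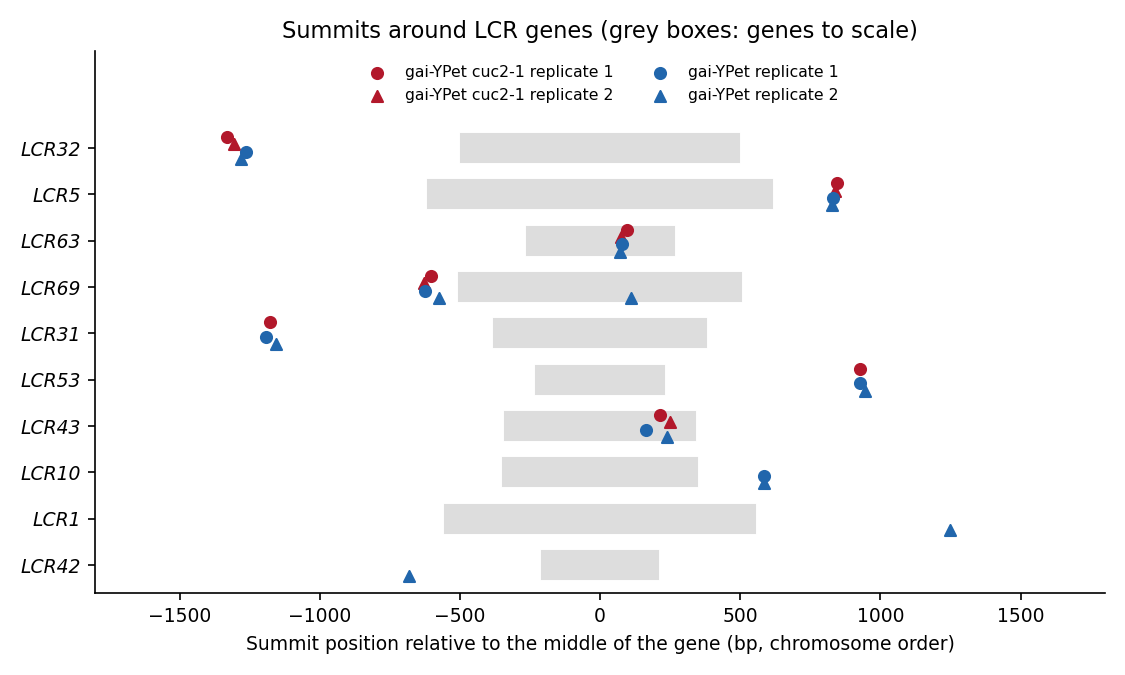
Position of each summit relative to the middle of its LCR gene in bp, in the order of the chromosome, with the gene drawn to scale as a grey box (marks as in the plot of folds by gene). Marks of one gene stack within 84 bp of each other apart from the second LCR69 peak, and those of LCR63 and LCR43 fall inside the box.

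LCR genes are short, and short genes had fewer summits. The family's lengths ran from 274 to 1558 bp with a median of 584.5 bp, beside a median of 2078 bp over all genes, so the stretch searched (the gene with 1000 bp on each side) had a median of 2584.5 bp, beside 4078 bp. Among the 8754 other genes no longer than the longest LCR gene, 6.60% had a summit in both gai-YPet cuc2-1 lists and 12.1% in both gai-YPet lists, beside the 6.25% and 10.0% of the LCR genes. Among the 18610 longer genes the shares were 11.9% and 21.0%. The LCR shares were thus near those of other short genes in both genotypes, and the part of gene length in the low LCR shares was not tested.

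By length class, 1 of the 29 LCR genes of up to 500 bp had a summit in both gai-YPet lists, beside 8.99% of other genes of that length. It was 3 of 26 from 501 to 750 bp, beside 8.08%, then 2 of 14 from 751 to 1000 bp, beside 12.9%, and 2 of 11 above that, beside 13.8%. In both gai-YPet cuc2-1 lists the counts were 0 of 29, beside 5.69%, 2 of 26, beside 5.16%, 1 of 14, beside 6.81%, and 2 of 11, beside 7.20%. Each count was within 2 genes of what the share of other genes of that length would give.

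The 70 LCR genes without a summit within 1000 bp were mostly far from any. Just outside the limit lay LCR59 at 1056 bp, LCR19 at 1104 bp, LCR61 at 1420 bp, LCR36 at 1492 bp and LCR39 at 1954 bp from the nearest tagged summit, while just inside it were LCR31 at 779 bp and LCR32 at 768 bp by the same measure. LCR59, LCR19 and LCR61 are neighbours of LCR63, and the summit nearest to LCR59 was the one inside LCR63 in all 4 tagged lists. In all, 13 LCR genes (16.2%) had their nearest tagged summit at 1001 to 3000 bp, beside 15.8% of all genes. Another 34 (42.5%) had it at 3001 to 10000 bp, beside 31.3%, and 23 (28.8%) lay beyond 10000 bp, beside 19.6%. LCR47 was the farthest, at 35845 bp. A summit fell inside the gene in 3 (3.75%), beside 15.1% of all genes, and 1 to 1000 bp outside in 7 (8.75%), beside 18.2%. All these shares are of the whole family and of all genes, so low shares within 1000 bp leave more for the farther classes. Shares among only the genes without a summit within 1000 bp were not computed.

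The median distance from an LCR gene to the nearest summit was 8238.5 and 13368.5 bp in gai-YPet cuc2-1 replicates 1 and 2, beside 6017 and 13495.5 bp over all genes. It was 8809 and 5318 bp in gai-YPet replicates 1 and 2, beside 6932 and 3316 bp. In gai-YPet cuc2-1 replicate 2 the medians of the family and of all genes nearly coincided, and in the other 3 lists the LCR genes were farther away.

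**Figure D4:**
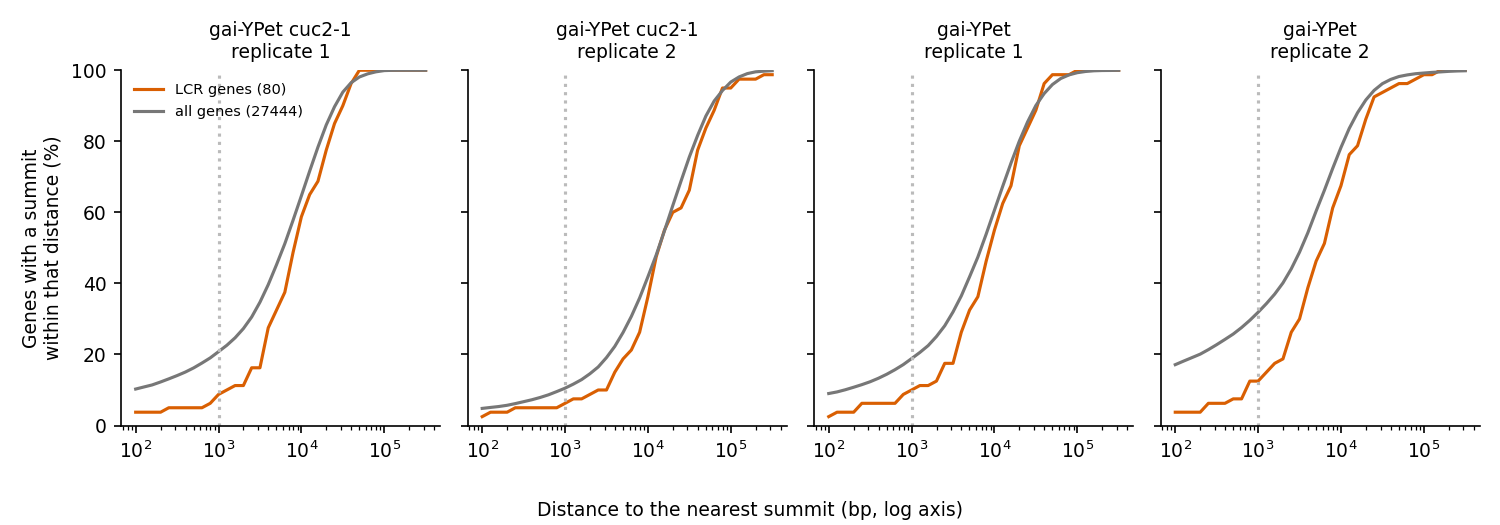
Percentage of genes whose nearest summit lies within a given distance (bp, log axis), for the 80 LCR genes (orange) and all 27444 genes (grey), in each tagged list, with a dotted line at 1000 bp. The orange curve runs below the grey one at short distances in all 4 panels. In gai-YPet cuc2-1 replicate 2 the curves touch near the medians, 13368.5 and 13495.5 bp, and part again, with 61.25% beside 68.8% at 25119 bp. In the other panels they meet at longer distances.

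Genes of the family sit partly in groups of near neighbours, and summits were found both there and at single genes. With gaps of up to 10000 bp, 38 LCR genes fell into 14 groups, of which 4 held 1 gene with a summit each. By gene, 4 of the 38 grouped and 6 of the 42 single LCR genes had one, beside 33.3% of all genes in any tagged list. The largest group, LCR23, LCR22, LCR21, LCR24, LCR26, LCR27 and LCR25 within 11277 bp of chromosome 4, had no summit within 1000 bp of any of its 7 genes in any list. LCR8, LCR52, LCR53 and LCR54 on chromosome 3 had the summits of LCR53 only, and LCR61, LCR63, LCR59 and LCR19 on chromosome 4 those of LCR63 only. By chromosome, 1 of 6 LCR genes had a tagged summit on chromosome 1, 4 of 22 on chromosome 2, 3 of 17 on chromosome 3, 1 of 23 on chromosome 4 and 1 of 12 on chromosome 5. Over all genes that share lay between 31.3% and 34.6% on each chromosome.

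The genes next to LCR genes had shares near those of all genes. Of the 118 protein-coding genes that flank LCR genes, 12 (10.2%) had a summit in both gai-YPet cuc2-1 lists, beside 10.2% of all genes, and 19 (16.1%) in both gai-YPet lists, beside 18.1%. Their median length was 2122.5 bp, close to that of all genes.

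Other families of small secreted peptides had shares below those of all genes, like LCR, or above them. Of all genes, 10.2% were in both gai-YPet cuc2-1 lists and 18.1% in both gai-YPet lists. The SCRL genes, relatives of the self-incompatibility ligand SCR, had 0 of 27 in both gai-YPet cuc2-1 lists and 1 of 27 (3.70%) in both gai-YPet lists, namely SCRL17. None of the 8 genes with a PDF symbol was in both lists of a genotype, but 8 genes are too few to set beside those shares. PDF2.5 had a summit in gai-YPet cuc2-1 replicate 1 and in gai-YPet replicate 2. The RALF genes, which encode cysteine-containing signals for FERONIA-type receptor kinases, had 2 of 34 (5.88%) in both gai-YPet cuc2-1 lists and 4 (11.8%) in both gai-YPet lists. SCRL and RALF genes are as short as LCR genes, with medians of 582 and 575 bp. Of genes outside LCR and no longer than its longest member, 6.60% were in both gai-YPet cuc2-1 lists and 12.1% in both gai-YPet lists.

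GASA genes, cysteine-rich peptides of which several are induced by gibberellin, had 1 of 6 in both gai-YPet cuc2-1 lists (GASA6, 16.7%) and 3 in both gai-YPet lists (GASA1, GASA4 and GASA6, 50%). As with the PDF genes, 6 genes are too few to set beside the shares of all genes. The folds at GASA6 were 5.03 and 2.63 in gai-YPet cuc2-1, and 3.77 and 3.49 in gai-YPet. CLE genes, peptide signals without the cysteine motif, had 4 of 30 (13.3%) and 9 of 30 (30%). Among them CLE42 had folds of 6.39 and 3.90 in gai-YPet cuc2-1, and 7.96 and 6.53 in gai-YPet, near those of LCR32. The median lengths of these families were 1027.5 bp for GASA and 834 bp for CLE, longer than the 584.5 bp of LCR. The families were small and were not tested against LCR.

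**Figure D5:**
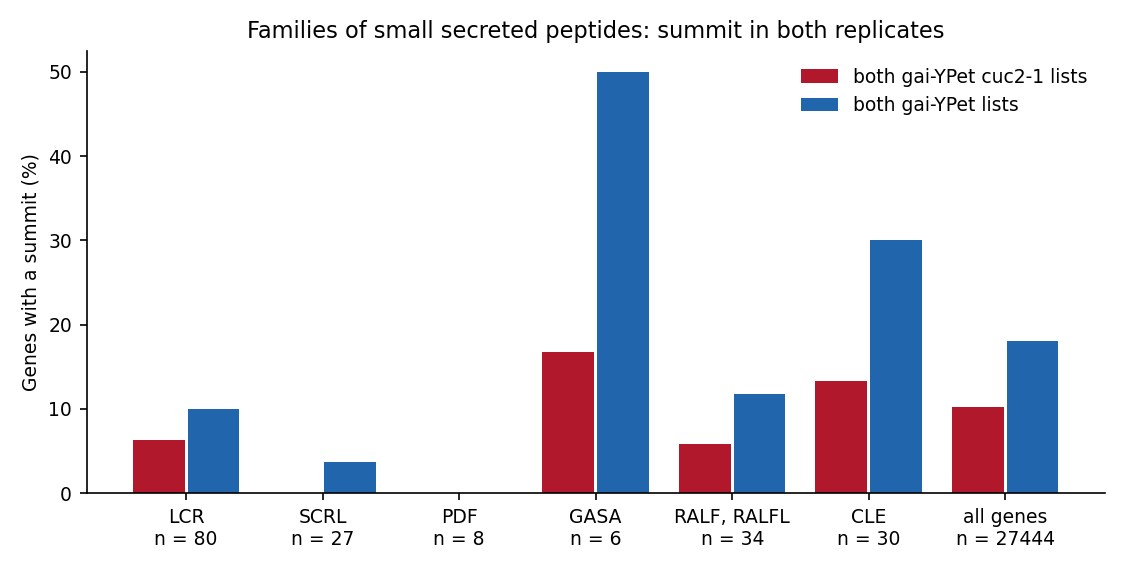
Percentage of genes with a summit in both replicates of gai-YPet cuc2-1 (red) and of gai-YPet (blue), for 6 families of small secreted peptides and for all nuclear protein-coding genes, with the number of genes under each name. LCR stands at 6.25% and 10.0%, below the 10.2% and 18.1% of all genes, and CLE stands above them. GASA also stands above them, but its 6 genes, like the 8 of PDF, are too few to set beside those shares.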

How the data were processed

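The 6 peak lists, 4 of them from tagged plants, are 1 per ChIP library, and each library's group was read from its source name. Per the submitters' processing notes, the tools were cutadapt, Bowtie2, SAMtools, MACS2 and bedtools on the build TAIR10; versions and settings are not given in the sources. The authors' deposited columns used here are the score, the fold enrichment (a ratio) and the −log10 q-value of each peak, in MACS2's layout. The deposited ratio and −log10 values of the replicate 2 lists had damaged decimal marks, which were restored as 5 decimals. The deposited score then equals 10 times the −log10 q, truncated, in all 30830 lines. Depth is unknown. Replicates are independent by the labels, and no p-value was computed.

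Genes, symbols and lengths came from RefSeq (assembly TAIR10.1). Its coordinates are taken to match TAIR10 and are not given. Summits lay outside genes more often as given (68.0% in gai-YPet cuc2-1, 63.6% in gai-YPet) than after a shift of 5000 bp either way (43.4% and 44.7%, 39.9% and 40.9%). Of 81 genes with an LCR symbol, 80 are protein-coding, and 1 transcribed pseudogene was left out. A summit within 1000 bp counted for every gene in reach. Pairs of gene and summit equalled those of bedtools 2.31.1 in all 6 lists, and the search was tested on simulated data.

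The family, the comparison families and all lists were chosen with earlier results of these data known. All 10 LCR genes with a summit are named, with their nearest genes and the 5 genes just outside the limit. Percentile classes, length classes, distance classes, neighbour groups, flanking genes, the spread of summits, the order of folds and the shift check were chosen after values were seen. Planned descriptions of promoters and proteins were not made, since no sequence was used here. Alternatives were other windows, any base of a peak, the stronger 50% of the peaks, an equal number of peaks per list, removal of peaks touching Ler, the nearest gene only, LCR as a synonym, and each replicate left out. Python 3.11.15, numpy 2.4.6, pandas 2.3.3 and matplotlib 3.10.9 were used.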

Additional observations from a re-analysis of the deposited data

How the results depend on the processing

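The LCR share was below the share of all genes in 11 of 11 alternatives in gai-YPet cuc2-1 and in 11 of 11 in gai-YPet. These alternatives reuse the same peaks, and removing peaks that touch Ler could not change the LCR counts. They set LCR beside genes of all lengths. Other genes no longer than the longest LCR gene, at 6.60% and 12.1% in the main setting, were not recounted under them. The count of 0 in Ler held in all 11. The nearest Ler summit lay 26458 bp from an LCR gene, beyond the widest window of 3000 bp, so the alternatives hardly tested that count. Counts depended on the window. With summits inside the gene alone, 2 LCR genes (2.5%) were found in both gai-YPet cuc2-1 lists, beside 3.43% of all genes. In both gai-YPet lists 2 (2.5%) were found, beside 6.23%, and in any tagged list 3 (3.75%), beside 15.1%. Within 500 bp, 5 (6.25%) were found in both gai-YPet lists, beside 13.6% of all genes. In any tagged list 6 were found, where the share of all genes was not computed. Within 3000 bp, 8 (10%) were found in both gai-YPet cuc2-1 lists, beside 18.1% of all genes, and 14 (17.5%) in both gai-YPet lists, beside 30.4%. In any tagged list 23 were found within 3000 bp. By nearest tagged summit, 15.1% of all genes had it inside the gene, 18.2% at 1 to 1000 bp and 15.8% at 1001 to 3000 bp. The LCR shares in those classes were 3.75%, 8.75% and 16.2%. With the stronger 50% of each list, 2 were left in gai-YPet cuc2-1 and 5 in gai-YPet, beside 5.58% and 10.3% of all genes. With 3666 peaks kept in every tagged list, 5 were left in gai-YPet, beside 9.62% of all genes. Leaving out 1 replicate gave 5 to 7 LCR genes and 10.5% to 20.8% of all genes in gai-YPet cuc2-1, where the higher share came without replicate 2, and 8 to 10 LCR genes and 18.8% to 31.9% of all genes in gai-YPet, where the higher share came without replicate 1. Without single replicates, 8 to 10 LCR genes had a summit in any tagged list. The share of all genes was not computed for these settings and was 33.3% with all lists kept. No paired analysis was possible because the results come from no test. With 5 to 10 genes behind each value and no read depth, small differences from the share of all genes cannot be resolved.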
